A study of Mus musculus with 2 samples.

Results

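The genes of 37 cytosolic translation initiation and elongation factors were followed in MEP, the megakaryocyte-erythroid progenitors of the marrow, which give rise to red cells and to platelet-forming megakaryocytes. They were taken by gene symbol from the 69691 features of the gene tables, which held 21461 protein-coding nuclear genes, and all 37 symbols were found. The members comprised 5 elongation factor genes, 3 subunits of eIF2, 5 subunits of its exchange factor eIF2B, 12 subunits of eIF3, 7 eIF4 factors and binding proteins, and 5 further genes (Eif1, Eif5, Eif5a, Eif5b and Pabpc1). The series held 2 libraries of 1 group, labelled MEP biological replicates 2 and 1. Each was total RNA of more than 200 bases, with spike-in RNAs, from 100 primary cells of male C57BL/6J mice aged 5 to 6 weeks, with no treatment or genotype named. The biosamples were separate but carried 1 donor record, so the spread between them may be technical, and the design holds no second condition to test against.

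Translation starts when the eIF4 group binds the cap of an mRNA and unwinds its leader, while eIF2 carries the initiator tRNA to the small ribosomal subunit and eIF3 and eIF1 hold the scanning complex together. After the start codon is found, eIF5 and eIF5B trigger release of eIF2 and joining of the large subunit, and eIF2B reloads eIF2 with GTP. Elongation then rests on eEF1A, which delivers each charged tRNA, on eEF1B, which reloads eEF1A, and on eEF2, which moves the ribosome along. Erythroid cells are a textbook case of control at eIF2, since heme shortage leads to phosphorylation of its alpha subunit.

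Replicate 2 held 51510347 expected counts and replicate 1 held 30016974, with 50.1% and 45.0% of them on protein-coding nuclear genes. The members held 809090 counts in replicate 2 and 432538 in replicate 1, and the lowest member count in either library was 784. All 12 erythroid and MEP marker genes reached 10 TPM in both libraries, and the 4 genes that an MEP gate excludes (Cd34, Ly6a, Fcgr3 and Il7r) summed to 3.95 and 4.22 TPM. Levels are in TPM, the authors' length-corrected share of all transcripts on a fixed total, and are given for replicate 2 and then replicate 1.

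Messenger RNAs of the translation machinery often begin with a C followed by a run of C and T bases, known as a terminal oligopyrimidine tract, through which mTOR controls their translation. The annotated starts are therefore shown first. RefSeq starts on GRCm38.p6 were found for 28 of the 37 members, with 34 starts in all, and each was read from 5 bases before to 25 bases from the start on the transcribed strand. Of these 28 members, 8 (28.6%) held an unbroken run of at least 8 bases that were each C or T, against 3224 of 27025 genes with a start (11.9%) and 26 of 65 ribosomal protein genes (40.0%). The 8 windows are printed 5′ to 3′, with the longest run in capitals.
Eef1a1, chr9:78481700-78481729, minus strand: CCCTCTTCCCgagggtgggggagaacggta
Eef2, chr10:81176626-81176655, plus strand: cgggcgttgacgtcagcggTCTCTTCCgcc
Eif2s3x, chrX:94212627-94212656, minus strand: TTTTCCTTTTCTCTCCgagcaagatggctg
Eif2b2, chr12:85219476-85219505, plus strand: cggaagttgaCCTCTCTCggcccggaagtg
Eif2b5, chr16:20498812-20498841, plus strand: TCTCTCCCTgcaactacaccttcgcgtttt
Eif3f, chr7:108934410-108934439, plus strand: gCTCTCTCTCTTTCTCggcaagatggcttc
Eif3k, chr7:28981864-28981893, minus strand: gcgctggtgctgaaagcgCCTTTCCCTTTg
Eif3l, chr15:79075218-79075247, plus strand: cttcttccgCTCTCTCCCacgggcttctgg
The run lay at different distances from the annotated start. The run opened the window in Eef1a1, Eif2s3x and Eif2b5, and lay within the transcribed part in Eef2, Eif2b2, Eif3k and Eif3l. It spanned 16 bases in Eif2s3x, 15 in Eif3f, 11 in Eif3k and 10 in Eef1a1. Windows of an elongation, an eIF3 and an eIF4 member without such a run are shown for contrast, again with the longest run of C and T in capitals.
Eef1b2, chr1:63176826-63176855, plus strand: gTTCCgccggaagtagccgaggccttgcgt
Eif3m, chr2:105017003-105017032, minus strand: ggcgtgtttctggatcggagcgTCTTCCgc
Eif4a1, chr11:69672399-69672428, minus strand: gTCacgtcgagttgcagagcgccggcaggc
The 8 members with a run had a median level of 110 TPM (range 30.5 to 5475, mean of both libraries), and the 20 without one had a median of 111 TPM (range 27.9 to 806). The medians were nearly equal. No window was matched for Eef1d, Eef1g, Eif2b3, Eif3e, Eif3h, Eif3i, Eif4g2, Eif4ebp1 or Pabpc1. A run, or the lack of one, is a description of the letters in this window and not of a working tract. The window rests on the annotated start, so a member without a run here may still have a tract.

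Every member was expressed. All 37 reached at least 10 TPM in both libraries, a level that 24.7% of the 21461 protein-coding nuclear genes reached, and 21 of 37 reached at least 100 TPM in both, a level that 2.2% reached. Replicate 2 had a members' median of 134 TPM and replicate 1 one of 129 TPM. Together the members made up 2.95% of the TPM of protein-coding nuclear genes in replicate 2 and 3.2% in replicate 1, of which the 5 elongation factor genes gave 1.72% and 1.9%. Levels ranged 224-fold, between 24.5 TPM for Eif2b3 and 5475 TPM for Eef1a1 as means of both libraries. The order of the 37 members was nearly the same in both libraries, with a Spearman correlation of 0.99 across these genes, which are not independent replicates.

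**Figure D1:**
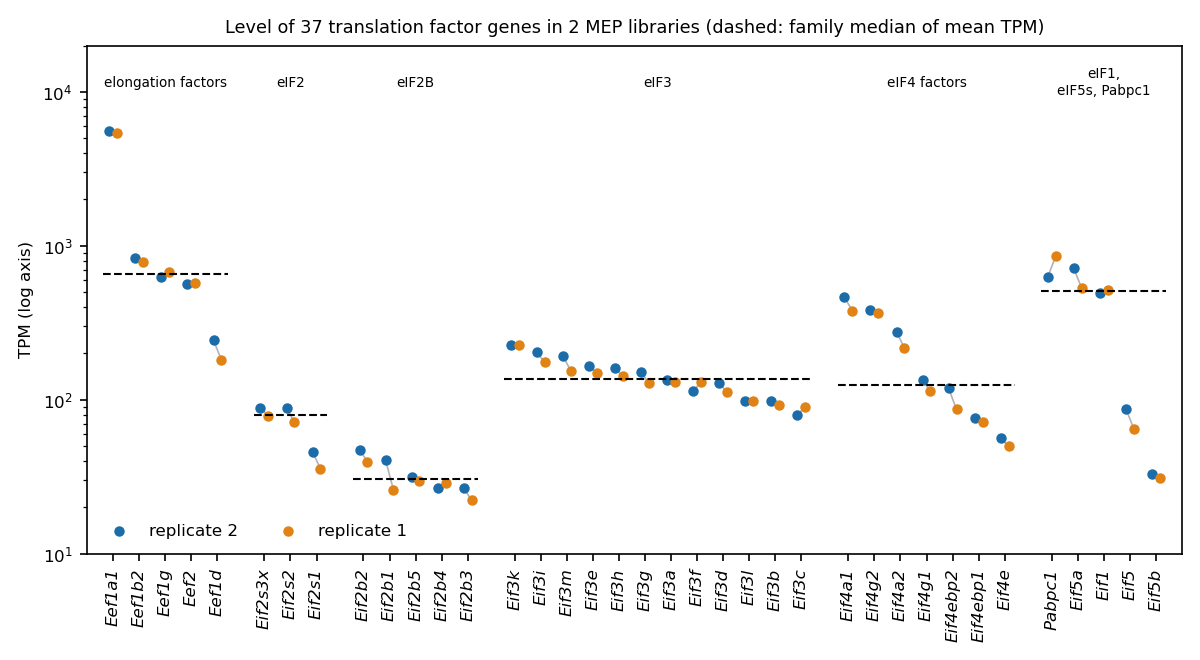
TPM (log axis) of each of the 37 members, grouped by family and ordered by mean within it, with replicate 2 on the left of each pair and replicate 1 on the right; dashed lines are the family medians of the mean TPM. The elongation factors sit highest with a median of 653 TPM, and all 5 eIF2B subunits lie under 50 TPM in both libraries.

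The elongation factors stood highest. Eef1a1 (ENSMUSG00000037742.10, mm10 chromosome 9, 78478449 to 78489151, minus strand), which encodes the tRNA-delivering eEF1A1, had 5560.96 TPM in replicate 2 and 5388.8 TPM in replicate 1, or 5475 ± 122 TPM (SD, n = 2). It ranked 1 among protein-coding nuclear genes in replicate 2 and 2 in replicate 1. Eef2 (ENSMUSG00000034994.9, chromosome 10, 81176631 to 81182498, plus strand), the translocase, had 562.99 and 576.8 TPM, or 569.9 ± 9.77 TPM (SD, n = 2). Eef1a1 thus exceeded Eef2 by a ratio of 9.88 in replicate 2 and 9.34 in replicate 1. Per mRNA length, the gene of the factor that carries tRNA was far above the gene of the factor that moves the ribosome, and the libraries gave similar ratios. Without the length correction, as counts, the ratio of means was 4.3 rather than 9.61.

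The 3 subunits of the exchange factor eEF1B did not stand at 1 level. Eef1b2, the catalytic alpha subunit, had 828.52 TPM in replicate 2 and 784.35 TPM in replicate 1, or 806.4 ± 31.2 TPM (SD, n = 2). Eef1g, the structural gamma subunit, had 628.97 and 676.49 TPM, or 652.7 ± 33.6 TPM (SD, n = 2). Eef1d, the delta subunit, which also carries exchange activity, was lowest with 243.69 and 181.53 TPM, or 212.6 ± 44.0 TPM (SD, n = 2). The order Eef1b2, Eef1g, Eef1d held in both libraries. Eef1b2 exceeded Eef1d by a ratio of 3.4 in replicate 2 and 4.32 in replicate 1, while Eef1b2 and Eef1g lay within 1.32 and 1.16 times of each other. Over protein-coding transcripts only, the widest ratio among the 3 was 2.43, against 3.79 for the gene-level means.

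The subunit genes of eIF2 stood between 35.64 and 88.89 TPM. Eif2s1 (ENSMUSG00000021116.9, chromosome 12, 78861819 to 78887010, plus strand) encodes the alpha subunit, the one that stress kinases phosphorylate. It had 45.87 TPM in replicate 2 and 35.64 TPM in replicate 1, or 40.75 ± 7.23 TPM (SD, n = 2). Eif2s2, the beta subunit, had 88.89 and 71.44 TPM, or 80.16 ± 12.3 TPM (SD, n = 2). Eif2s3x, the X-linked gene of the GTP-binding gamma subunit, had 88.4 and 78.98 TPM, or 83.69 ± 6.66 TPM (SD, n = 2). The alpha subunit gene was thus the lowest of the 3 in both libraries. Eif2s2 exceeded it by 1.94 and 2.0 times and Eif2s3x by 1.93 and 2.22 times, whereas Eif2s2 and Eif2s3x changed places between the libraries.

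The gamma subunit has a second gene in male cells. Eif2s3y, its Y-linked counterpart, had 66.61 TPM in replicate 2 and 32.23 TPM in replicate 1, or 49.42 ± 24.3 TPM (SD, n = 2). Eif2s3x exceeded Eif2s3y by a ratio of 1.33 in replicate 2 and 2.45 in replicate 1, so X was above Y in both but by unequal amounts. The coding sequences of the pair differ at 194 of 1416 bases and are 86.3% identical. The first 60 coding bases, in exon 1 of each gene on GRCm38, are printed to show how the copies are told apart, with the 13 differing bases in capitals. They were picked because no other 60-base coding window within 1 exon held more differences, so most of the sequence is more alike.
Eif2s3x, chrX:94212574-94212633, minus strand: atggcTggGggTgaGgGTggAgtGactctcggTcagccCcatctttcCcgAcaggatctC
Eif2s3y, chrY:1010617-1010676, plus strand: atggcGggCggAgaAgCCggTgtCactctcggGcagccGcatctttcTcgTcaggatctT
A processed pseudogene, Gm2223, is 100% identical to Eif2s3x over 1347 bases, but it received 206 counts in replicate 2 and 74 in replicate 1, or 1.73% and 1.28% of the Eif2s3x count.

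The genes of eIF2B, the exchange factor of eIF2, were the lowest family. Eif2b2 (beta subunit) was highest with 47.51 TPM in replicate 2 and 39.71 TPM in replicate 1, or 43.61 ± 5.52 TPM (SD, n = 2). Eif2b1 (alpha) followed with 40.53 and 26.04 TPM, or 33.28 ± 10.2 TPM (SD, n = 2). The catalytic epsilon subunit gene Eif2b5 had 31.54 and 29.52 TPM, or 30.53 ± 1.43 TPM (SD, n = 2). Replicate 2 over replicate 1, Eif2b1 differed most, at 1.56 times, followed by Eif2b3 at 1.21 and Eif2b2 at 1.2 times. Eif2b5 and Eif2b4 repeated more closely, at 1.07 and 0.927 times. Eif2b4 (delta) had 26.8 and 28.92 TPM and Eif2b3 (gamma) 26.76 and 22.18 TPM. The 5 subunits spanned 1.78-fold in replicate 2 and 1.79-fold in replicate 1, the narrowest range of the 4 complexes compared at gene level. It was 5.47-fold over protein-coding transcripts only, because most Eif2b4 TPM lay in transcripts that the later annotation does not hold. The median eIF2 subunit exceeded the median eIF2B subunit by a ratio of 2.8 in replicate 2 and 2.47 in replicate 1. No eIF2B subunit reached the level of any eIF3 subunit in either library, but Eif2s1 lay within the eIF2B range.

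The 12 eIF3 subunit genes, which build the scaffold of the scanning complex, stood between 79.58 and 226.98 TPM over both libraries. Replicate 2 had a median of 142 TPM over them and replicate 1 one of 130 TPM, which was 4.5 and 4.51 times that of eIF2B. Eif3k (ENSMUSG00000053565.9, chromosome 7, 28971372 to 28981864, minus strand), a small peripheral subunit, was highest with 226.98 and 225.96 TPM, or 226.5 ± 0.721 TPM (SD, n = 2). Eif3i, a WD-repeat subunit, had 202.88 and 175.86 TPM, or 189.4 ± 19.1 TPM (SD, n = 2). Eif3m, a PCI-domain subunit, completed the 3 highest with 192.49 and 154.8 TPM, or 173.6 ± 26.7 TPM (SD, n = 2).

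In the middle of the family stood Eif3e with 165.57 and 149.62 TPM, Eif3h with 160.21 and 141.91 TPM, and Eif3g, an RNA-binding subunit, with 150.57 and 128.82 TPM. Eif3a, the largest scaffold subunit, had 133.52 and 130.06 TPM, or 131.8 ± 2.45 TPM (SD, n = 2). Neighbours in this order did not separate beyond their spread, since Eif3d had 128.04 and 111.96 TPM and Eif3f 113.45 and 130.9 TPM. Eif3l had 98.15 and 98.12 TPM and Eif3b, which binds Eif3i and Eif3g, 98.36 and 91.87 TPM. Eif3c, a core subunit that pairs with Eif3a, was lowest with 79.58 and 90.38 TPM, or 84.98 ± 7.64 TPM (SD, n = 2). Eif3k exceeded Eif3c by a ratio of 2.85 in replicate 2 and 2.5 in replicate 1. In counts without the length correction, the widest ratio in the family was 5.13.

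TPM and expected counts of the eIF3 genes ran in opposite directions with length. Across the 12 genes, effective length and TPM had a Spearman correlation of -0.77 in replicate 2 and -0.69 in replicate 1, against -0.38 in both over all 37 members. With expected counts in place of TPM, the correlation over the 12 genes was 0.87 in replicate 2 and 0.9 in replicate 1. TPM is the count divided by effective length, so a negative relation is partly built in, and genes of 1 library share depth and library chemistry. Eif3a had the longest effective length of the family, 5009.89 bases in replicate 2 and 5040.14 in replicate 1, beside a TPM near the family median. Eif3k had the shortest, 606.9 and 637.14 bases.

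**Figure D2:**
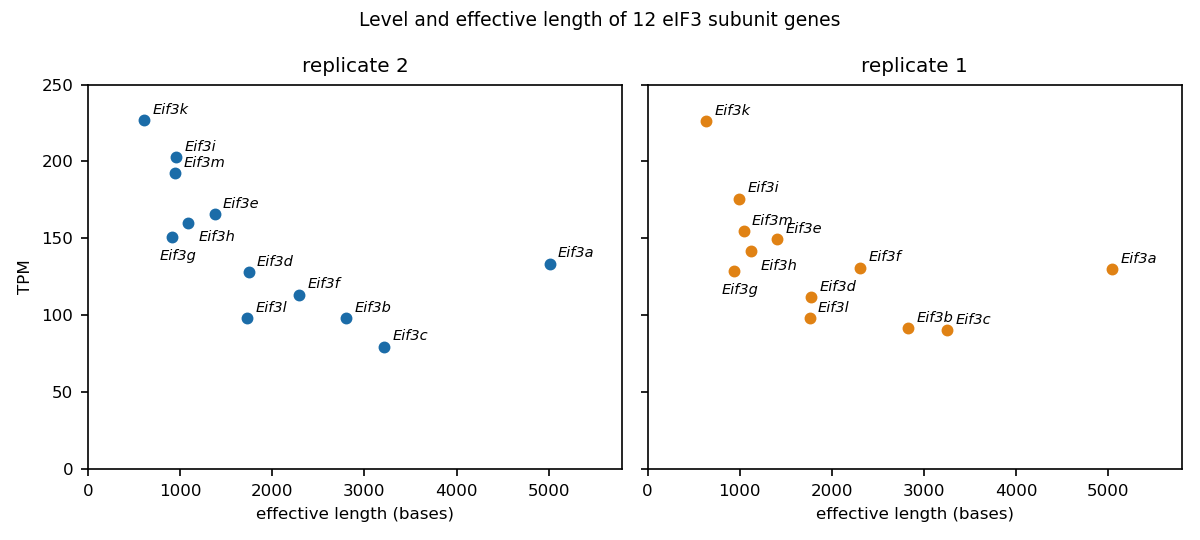
TPM against effective length in bases for the 12 eIF3 subunit genes in replicate 2 (left) and replicate 1 (right), 1 point per gene. In replicate 2 the shortest, Eif3k, has 226.98 TPM and the long Eif3c has 79.58 TPM, while Eif3a at 5009.89 bases stands apart at 133.52 TPM.

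Among the eIF4 group, the helicase genes stood above the gene of the cap-binding protein at gene level. Eif4a1 (ENSMUSG00000059796.12, chromosome 11, 69666936 to 69672423, minus strand), an RNA helicase of the eIF4F complex, had 462.6 TPM in replicate 2 and 379.72 TPM in replicate 1, or 421.2 ± 58.6 TPM (SD, n = 2). Its close relative Eif4a2 had 275.89 and 216.94 TPM, or 246.4 ± 41.7 TPM (SD, n = 2). Eif4a1 exceeded Eif4a2 by a ratio of 1.68 in replicate 2 and 1.75 in replicate 1. Eif4e (ENSMUSG00000028156.8, chromosome 3, 138526179 to 138559696, plus strand), the cap-binding protein itself, had 56.19 and 49.75 TPM, or 52.97 ± 4.55 TPM (SD, n = 2). The helicase gene Eif4a1 was thus 8.23 and 7.63 times as high as Eif4e. Over protein-coding transcripts only, Eif4a2 averaged 59.48 TPM, close to Eif4e at 52.97 TPM.

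The scaffold gene Eif4g1, which bridges the cap-binding protein and the ribosome, had 133.65 TPM in replicate 2 and 114.27 TPM in replicate 1, or 124.0 ± 13.7 TPM (SD, n = 2). Eif4g2, a relative that lacks the cap-binding-protein site and is also called DAP5, had 385.29 and 365.13 TPM, or 375.2 ± 14.3 TPM (SD, n = 2). Eif4g2 exceeded Eif4g1 by a ratio of 2.88 in replicate 2 and 3.2 in replicate 1. The genes of both 4E-binding proteins, which compete with eIF4G for eIF4E and so block assembly of eIF4F, were above Eif4e in TPM. Eif4ebp1 had 76.6 and 71.68 TPM, or 74.14 ± 3.48 TPM (SD, n = 2), and exceeded Eif4e by 1.36 and 1.44 times. Eif4ebp2 had 118.51 and 86.51 TPM, or 102.5 ± 22.6 TPM (SD, n = 2), and exceeded Eif4e by 2.11 and 1.74 times. The order of Eif4ebp1 and Eif4e rested on the length correction. In expected counts Eif4ebp1 was lower, with 2411 and 1331 against 5895 and 3002 for Eif4e, while Eif4ebp2 stayed higher with 7415 and 3053. Eif4ebp2 was above Eif4ebp1 in both libraries, by 1.55 and 1.21 times, and by 2.7 times in counts without the length correction.

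The remaining members fell into a high set and a low pair. Eif5a, whose product carries the hypusine residue and helps ribosomes through difficult peptide bonds, had 712.79 TPM in replicate 2 and 532.09 TPM in replicate 1, or 622.4 ± 128 TPM (SD, n = 2). Pabpc1, the poly(A)-binding protein that joins the mRNA ends, had 626.99 and 852.37 TPM, or 739.7 ± 159 TPM (SD, n = 2). Eif1, which guards start codon choice, had 491.82 and 518.49 TPM, or 505.2 ± 18.9 TPM (SD, n = 2). The order of Eif5a and Pabpc1 was opposite in the 2 libraries. Far below them, Eif5, the activator of GTP hydrolysis on eIF2, had 87.14 and 64.93 TPM, or 76.03 ± 15.7 TPM (SD, n = 2). Eif5b, the GTPase of subunit joining, had 33.0 and 30.98 TPM, or 31.99 ± 1.43 TPM (SD, n = 2). Eif5a exceeded Eif5, which shares only its name, by 8.18 and 8.19 times. The median of these 5 genes was 505 TPM at gene level and 258 TPM over protein-coding transcripts only.

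Related genes outside the 37 members were lower than the member in most groups. Of 14 such genes, 7 reached 10 TPM in both libraries. Pabpc4, a second poly(A)-binding protein, had 170.64 and 170.9 TPM, and Pabpc1 exceeded it by 3.67 and 4.99 times. Eif4a3, a helicase of the exon junction complex, had 169.75 and 122.3 TPM, and Eif4a1 exceeded it by 2.73 and 3.1 times. Eif1b had 46.79 and 26.4 TPM, with Eif1 at 10.5 and 19.6 times its level. The member was therefore the higher gene in each of these 3 groups. Eif4g3 had 22.84 and 22.6 TPM, and Eif4g1 exceeded it by 5.85 and 5.06 times. Eif4ebp3 had 15.55 and 10.28 TPM.

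The cap-binding group was the exception. Eif4e2, a cap-binding relative that does not join eIF4G in the usual way, had 70.13 and 43.31 TPM, and Eif4e stood at 0.801 and 1.15 times its level. Which of the pair was higher thus differed between the libraries. Of the 14 related genes, 4 had 0 counts in both libraries. Eef1a2, the isoform of eEF1A known from muscle and neurons, was 1 of these 4 and is the only 1 named, so its value is not particular to it. For Eef1a2, a count of 0 allows up to 0.0405 TPM in replicate 2 and 0.0701 TPM in replicate 1 (3 counts per library, counting error only). The coding sequences of Eef1a1 and Eef1a2 are 80.1% identical.

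**Figure D3:**
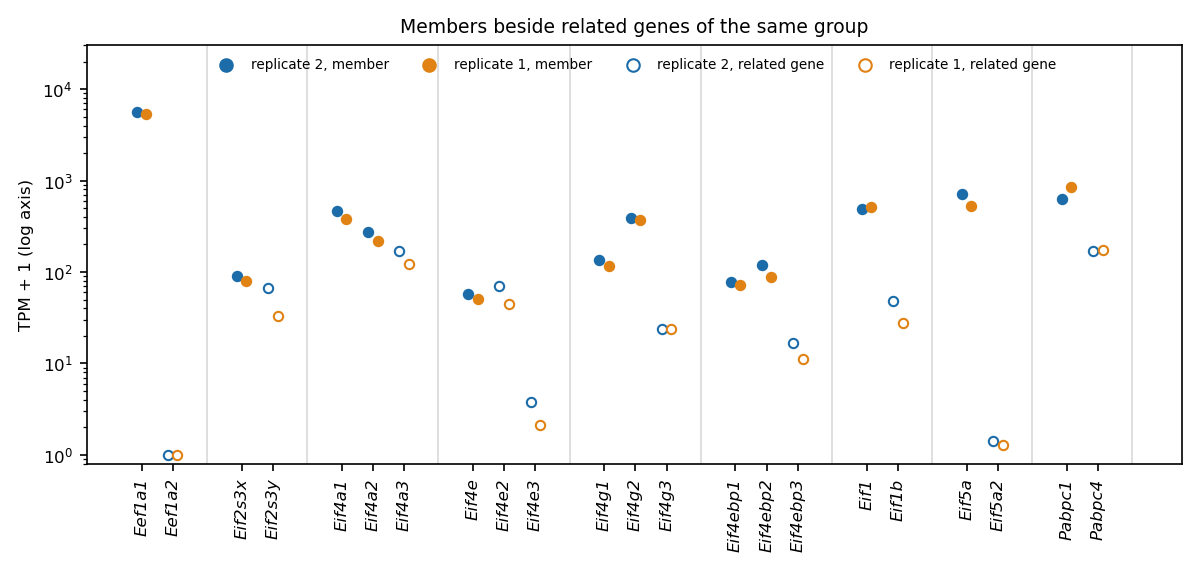
TPM + 1 (log axis) of members (filled) beside related genes outside the set (open) in 9 groups, with replicate 2 left of replicate 1. Eif4e2 overlaps Eif4e, Eif2s3y comes close to Eif2s3x, and Eef1a2 sits at 0 TPM under Eef1a1.

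Other listed genes of the pathway had lower median levels. Of 15 other initiation genes, 15 reached 10 TPM in both libraries and 2 reached 100 TPM, with medians of 37.4 and 32.9 TPM. The highest were Eif4b, which stimulates the eIF4A helicase, with 142.57 and 138.16 TPM, Eif6, which keeps the large subunit apart, with 109.67 and 115.62 TPM, and Eif4h with 115.6 and 91.54 TPM. Of 12 genes of elongation control, termination and recycling, 9 reached 10 TPM in both, with medians of 33.2 and 31.8 TPM, led by the release factor gene Gspt1 with 156.37 and 127.73 TPM. Of 10 mitochondrial translation factor genes, 6 did, with medians of 20.2 and 15.5 TPM, and Tufm, the mitochondrial counterpart of Eef1a1, was highest with 61.82 and 51.22 TPM. The medians of these 3 lists lay below the median of the 37 members. Eif3j1 and Eif3j2, the loosely bound eIF3 subunit genes, share 100% of 783 aligned coding bases, so their split of reads is uncertain.

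Between the libraries, no member passed the 2-fold threshold. Differences are log2(TPM + 1) of replicate 2 minus replicate 1, read against the median of 5759 protein-coding nuclear genes with a mean of at least 10 TPM. None of the 37 members lay more than 2-fold from that median, against 1.96% of the 5759 genes. The members' median was 0.16 with an SD of 0.21, whereas the background median was 0.20, with an SD of 0.47. By sign, 30 members were higher in replicate 2 and 7 in replicate 1, beside 73.6% of background genes higher in replicate 2, but the count in replicate 2 was 17 under TMM or DESeq2 size factors, which brought the background median to 0.03. Relative to the background median, 15 members lay above it. The authors' credibility bounds, which describe the estimate within 1 library, did not overlap between the libraries for 28 of the 37 members, beside 64.7% of the 5759 background genes and 81.5% of the 556 with a mean of at least 100 TPM.

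Pabpc1 and Eif2b1 marked the ends of the range. Pabpc1 was lower in replicate 2, by 0.736 times, with a counting interval of 0.726 to 0.745 (exact Clopper-Pearson, 95%) and a log2 difference of -0.44. That interval does not cover how reads were split between transcripts. The main coding transcript of Pabpc1 had 541.46 TPM in replicate 2 and 568.83 TPM in replicate 1. A processed transcript, Pabpc1-207, had 11.13 and 159.84 TPM, so the gene-level difference lay largely outside the main coding transcript. Eif2b1 was higher in replicate 2, by 1.56 times with an interval of 1.45 to 1.67, and a log2 difference of 0.62. Eif4ebp2, Eif5, Eif5a and Eef1d followed Eif2b1 with differences of 0.45, 0.42, 0.42 and 0.42. These 5 genes came from 4 families. At the centre, Eif3k and Eif3l had differences of 0.01 and 0.00. By family, the median difference was 0.05 for the elongation factors, 0.31 for eIF2, 0.25 for eIF2B, 0.12 for eIF3 and 0.22 for the eIF4 factors.

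Markers of other cells also differed between the libraries. The 9 neutrophil markers summed to 7.57 TPM in replicate 2, where Ngp, Lcn2, Ltf, Elane and Mpo had 0 TPM, and to 1886 TPM in replicate 1. The 7 B cell markers summed to 126 TPM in replicate 2 and 7.14 TPM in replicate 1, where Vpreb1 had 0 TPM. The 5 T and NK cell markers summed to 37.9 and 49.4 TPM and the 6 megakaryocyte markers to 29.7 and 20.6 TPM. The part of these markers, and of the unequal depth, in the members' differences was not tested. In bulk RNA, fewer cells with a transcript and less RNA per cell cannot be told apart.

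**Figure D4:**
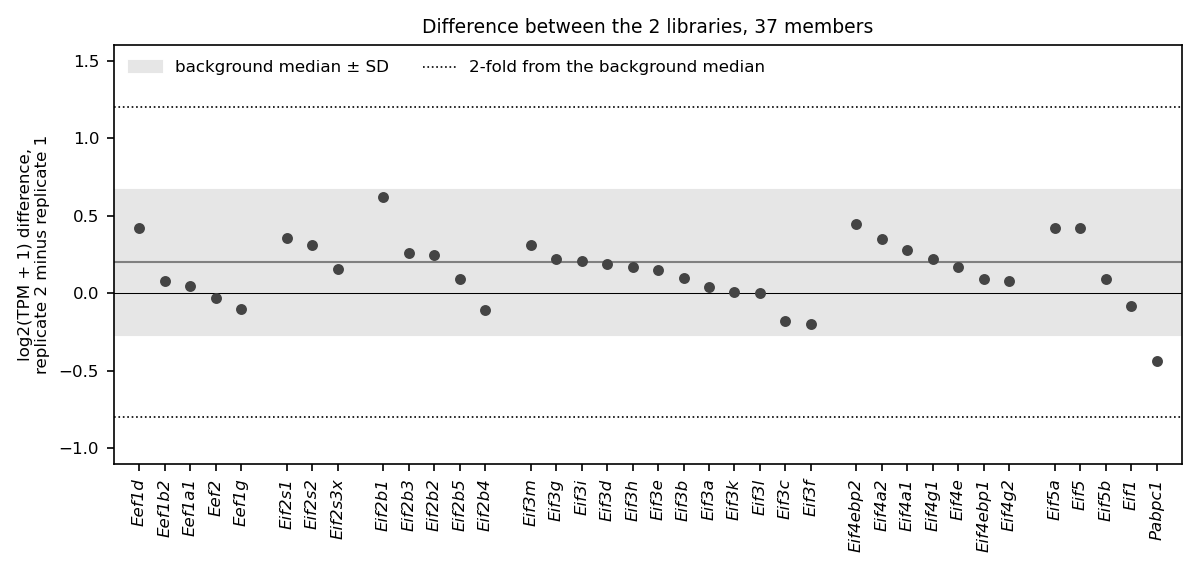
Difference in log2(TPM + 1), replicate 2 minus replicate 1, for each of the 37 members by family; the grey band is the background median of 0.20 ± its SD of 0.47 over 5759 genes, and dotted lines mark 2-fold from that median. All members lie inside the dotted lines, and Eif2b1 at 0.62 and Pabpc1 at -0.44 are the outermost.

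The transcript tables gave a second readout, the share of each gene's TPM in each annotated transcript. These shares are the authors' estimates of how reads divide among annotated transcripts, and intron retention or decay itself was not measured. Single shares could be unstable, as for the retained-intron transcript Eif4g1-210, with 0.61% in replicate 2 and 20.1% in replicate 1. The 37 members had 211 annotated transcripts, and 13 members had 1 only. The median member had 99.3% of its TPM in protein-coding transcripts in replicate 2 and 99% in replicate 1, beside 91.8% and 91.4% for protein-coding nuclear genes with a mean of at least 10 TPM. Of the 37 members, 18 had at least 99% in protein-coding transcripts in both libraries, and 10 of these were among the 12 eIF3 genes. These 18 included the 13 members with 1 annotated transcript, whose share the annotation sets. The share of background genes at 99% was not computed. At least 90% was reached by 62.2% of members in replicate 2 and 64.9% in replicate 1, beside 52.2% and 51.7% of background genes. Members under 50%, Eif2b4 included, numbered 3 (8.11%) in replicate 2 and 6 (16.2%) in replicate 1, beside 15.8% and 16.6% of background genes. The eIF3 genes were thus mostly single coding transcripts. The 3 eIF2 genes also had 96.4% or more in coding transcripts in each library, while the other families were mixed. Of the 12 eIF3 genes, 9 had 1 annotated transcript, which then holds the whole gene.

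Eif4a2 had the lowest coding share among members whose transcripts are all in the later annotation, with 29.9% in replicate 2 and 16.9% in replicate 1. Transcripts with retained introns took 46.8% and 57.5% of its TPM, and transcripts marked for nonsense-mediated decay took 23.4% and 25.6%. Its relative Eif4a1 had 77.7% and 80.4% in 1 coding transcript. Counted over protein-coding transcripts alone, Eif4a1 exceeded Eif4a2 by 5.59 times, against 1.71 times at gene level (means of both libraries). The gene-level ratio of these helicases therefore depends on which transcripts are counted. Eef1b2 had 55.7% and 59.2% in coding transcripts and 41.8% and 38.8% in transcripts marked for nonsense-mediated decay, of which a single transcript held 39.1% and 36.39%.

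Transcripts annotated with a retained intron also took a large share in Eif5b, with 49.4% of TPM in replicate 2 and 57.0% in replicate 1, and in Eif2b2, with 54.2% and 57.6%. Among the 24 members with several transcripts, 21 had the same leading transcript in both libraries. The same share over background genes was not computed, so this count has no comparison. The 3 exceptions were Eef1g, Eif1 and Eif4g1. In Eef1g the coding transcript led with 53.1% in replicate 2, and a retained-intron transcript led with 52.2% in replicate 1. In Eif1 a coding transcript led with 62.8% in replicate 2, and a processed transcript led with 45.8% in replicate 1. In Eif4g1 a coding transcript led with 36.99% in replicate 2 but held 4.66% in replicate 1, where 2 other transcripts held 20.1% and 20.08%. The coding share was the lower of the pair in replicate 1 for all 3 genes. For Eif2b4, 68.2% and 89.2% of TPM lay in transcripts of the authors' annotation that the later one does not hold, so its class could not be read.

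**Figure D5:**
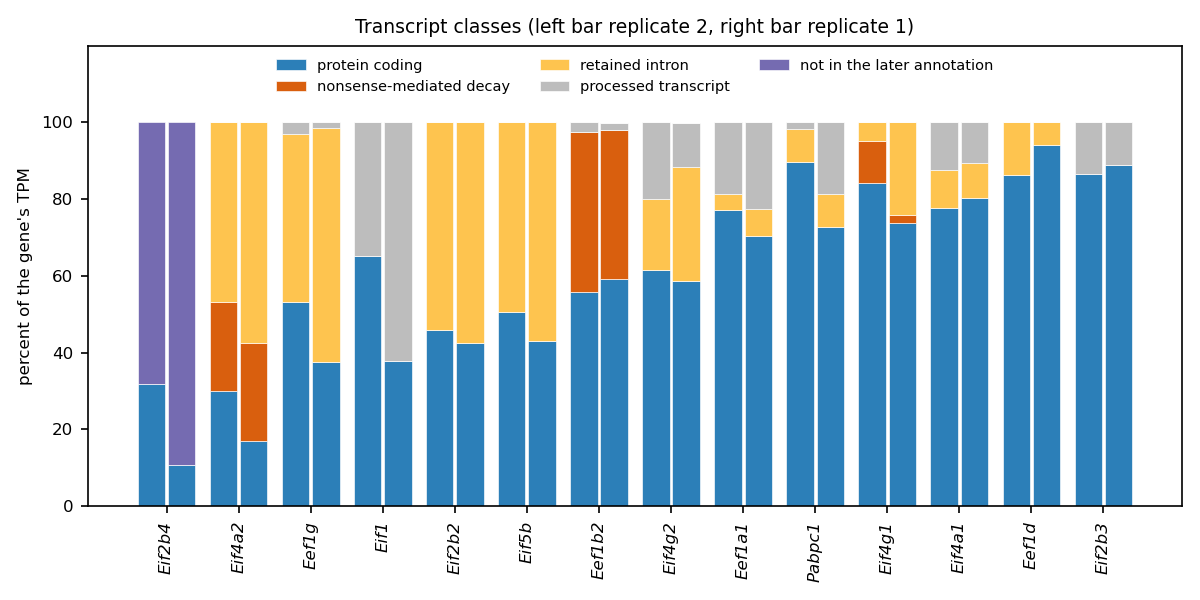
Percent of the gene's TPM by transcript class for the 14 members with under 90% in protein-coding transcripts in either library, left bar replicate 2 and right bar replicate 1. Eif4a2 has 29.9% in protein-coding transcripts in replicate 2 and 16.9% in replicate 1, Eef1b2 has 38.8% or more in transcripts marked for nonsense-mediated decay, and the leading class of Eif1, Eef1g and Eif5b differs between the libraries.

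Some members have near-identical copies elsewhere in the genome, which can take or give reads. A copy was a transcript of another gene with at least 95% identity over at least 50% of the member's coding sequence. Of the 37 members, 14 had such a copy and 23 had none, and 26 of the 27 copies were annotated pseudogenes. Copies were not sought for other genes, so these counts have no share over all genes beside them. Eef1a1 had 4 pseudogene copies, which together received 1306 counts in replicate 2 and 642 in replicate 1, or 0.452% and 0.419% of its own count. For Eif4a1 the 2 copies received 1.58% and 2.26%, all from Eif4a-ps4, which is 99.918% identical. The 9 pseudogenes of Eif1 received 0.211% and 0.293%. The other copy of Eif1 lies in a transcript of Emd, the emerin gene, which had 2037 and 864 counts over all of its transcripts. The split between member and copy is uncertain for these genes, but the pseudogenes' counts stayed under 3% of the member's.

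Several members have small RNA genes within their coordinates, and how common this is over all genes was not computed. There were 25 such small RNA genes in 13 members, 17 of them small nucleolar RNAs (snoRNAs), which guide ribosomal RNA modification. Of the 22 in the tables, 11 had 0 counts in both libraries, and all together had 1084 counts in replicate 2 and 1455 in replicate 1. Gm22988 in Eif4a1 held most of them, with 803 and 929 counts. In Eif4a2, the snoRNA gene Gm26447 had 18 and 184 counts and Snora81 had 96 and 33 counts. These RNAs are shorter than the 200 bases above which RNA was kept, and reads from an unspliced host cannot be told apart from them here.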

How the data were processed

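Total RNA-seq of 2 MEP libraries was analysed from the gene and transcript tables. Per the README with the tables, the authors used mm10 and GENCODE M4; which aligner and quantifier they ran is not given in the sources used here. Expected counts, as deposited, are estimated reads per feature, rounded for size factors only. TPM values, as deposited, correct for effective length and share 1 fixed sum over all features, ribosomal RNA included. Protein-coding nuclear genes held 45.6% of TPM in replicate 2 and 40.1% in replicate 1, and the rest was not split by class. FPKM values were deposited too and left aside. The authors also gave the percent of each gene by transcript. The deposited score column, the posterior standard deviation of counts, and the deposited signal columns, the bounds of credibility intervals, were used for precision only. These bounds are on the scale of posterior means, which were 0.957 to 1.016 times the TPM of members.

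Gene names, classes and positions were those of GENCODE M21 (GRCm38, the mm10 assembly), matched on identifiers stripped of their version; 42462 of 43346 genes matched. Starts came from RefSeq (GRCm38.p6). The members and lists were chosen with earlier results of these data known. All 37 members are named, related genes at 10 TPM in both libraries are named, and of other lists the highest are named; Eef1a2 was named after its values were seen. No test was possible with 1 group, so p-values were not computed. The libraries were not duplicates, since their counts over 13354 genes gave a chi-square of 83.1 per degree of freedom. Differences between libraries used log2(TPM + 1), which understates changes of low genes. Intervals of ratios are exact Clopper-Pearson at 95%, and, like the limit of 3 counts for a count of 0, cover counting error only. Alternatives were posterior means, protein-coding transcripts only, rescaled TPM, other pseudocounts and filters, each library alone, and TMM (edgeR 4.0.16) or DESeq2 1.42.0 size factors in R 4.3.3. The difference rule was tested only on simulated libraries with counting error alone. Those lack the wider spread between the real libraries, so the test does not show how the rule performs on them. Copies were sought by blastn 2.17.0 (word size 28), and pairs aligned with Biopython 1.88. Python 3.11.15 was used with pandas 2.3.3, numpy 2.4.6, matplotlib 3.10.9 and scipy 1.17.1.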

Additional observations from a re-analysis of the deposited data

How the results depend on the processing

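The counts of 37 members at 10 TPM and 21 at 100 TPM changed by less than 1.5 times under every alternative run, and posterior means moved the eIF2B range (1.76) and the levels of Eef1a1, Eef2, Eif3a, Eif3k and Eif3l by more than the SD between libraries. Rescaling TPM over protein-coding nuclear genes raised the medians to 289 TPM for all members, 1533 for elongation factors, 187 for eIF2, 71.4 for eIF2B, 317 for eIF3, 289 for eIF4 factors and 1186 for the last 5 genes. With protein-coding transcripts only, the medians were 118 TPM for all members, 463 for elongation factors, 21.4 for eIF2B, 98.4 for eIF4 factors and 258 for the last 5 genes. Under the same setting Eif4a1 over Eif4a2 was 5.59, Eif4g2 over Eif4g1 2.3, Eef1a1 over Eef2 7.09, the eEF1B range 2.43-fold and the eIF2B range 5.47-fold, and 1 member, Eif2b4, passed 2-fold between the libraries (log2 1.01 from the background median), since most of its TPM lies in transcripts outside the later annotation. Without length correction, the ratios were 1.89 for Eif4a1 over Eif4a2, 2.7 for Eif4ebp2 over Eif4ebp1, 2.33 for Eif4g2 over Eif4g1 and 4.3 for Eef1a1 over Eef2, and the ranges 1.63-fold in eIF2B and 5.13-fold in eIF3. Each library alone gave a median over all members of 129 to 134 TPM. Of the 37 members, 17 were higher in replicate 2 under TMM or DESeq2 size factors and 16 with rescaled TPM, against 30 with TPM. The members' median less that of the background was -0.05 to 0.01 under the other scalings, pseudocount and transcript set, and 0.16 with no filter on the background. No paired analysis was possible because there was 1 group. Beyond counting, 2 libraries of 100 cells limit the precision of every level.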
